A study of Mus musculus with 4 samples.

Results

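Mature miRNAs are cut from the 2 sides of a hairpin, and a name that ends in 3p marks the product of the side nearer to the 3′ end of the RNA. The small RNA count tables listed 1211 rows under 1059 mature names. Of these, 114 rows had a name ending in 3p. The miR-297, miR-466, miR-467 and miR-669 families were to be left out of them, and none of the 3p rows belonged to these families. Where a name had several rows, 1 for each hairpin that could give the product, the row with the highest total was kept, which left 109 3p arms. The tables also held 785 names of 5p arms and 165 names without an arm. Only 113 of the 1023 hairpins in the tables had a 3p row, and 92 of the 709 mature 3p names of RefSeq had one. The other 3p arms were not analysed here, so counts and shares below describe the listed 3p arms and not 3p arms in general.

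The libraries came from the rostral-most telencephalic primordium of mouse embryos at E11.5 of embryonic development. The 2 mutant libraries were from RxCre-DicerF/F embryos, called Rx-Dicer mutants, in which Cre driven by Rx regulatory sequence deletes the floxed Dicer1 alleles in the early forebrain. The 2 control libraries carried the label WT, and the study describes its controls as DicerF/F littermates without Cre, so both genotypes would share the floxed alleles. Deletion by Cre is inherited by daughter cells, and cells outside the Cre lineage keep Dicer. How many embryos went into a library, and whether libraries came from separate embryos, was not given in the sources used here, so p-values measure only the spread between these libraries. The question was which 3p arms could be detected, how abundant they were, and whether their levels differed between mutants and controls.

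Dicer is the RNase that cuts the hairpin loop and releases a duplex of the 5p and the 3p strand. An Argonaute protein keeps 1 strand as the guide, while the other is degraded, so the strands of a hairpin are usually found at unequal levels. The guide finds its targets mainly through its seed, bases 2 to 8. In a mirtron, splicing of a short intron sets the ends of the hairpin in place of the enzyme Drosha, so its 3p arm ends with the intron at the splice acceptor. Dicer still cuts the loop.

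Sequences and positions are those of RefSeq on GRCm38.p6, the assembly whose mm10 form the study used, and 92 of the 109 3p arms matched a RefSeq mature sequence. The miR-299 arms are shown first because miR-299a-3p and miR-299b-3p carried the same reads in the tables. Capitals mark the seed, and all sequences run 5′ to 3′.
miR-299a-3p: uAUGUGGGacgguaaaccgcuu
miR-299b-3p: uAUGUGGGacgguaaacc
miR-299a-5p: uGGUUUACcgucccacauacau
miR-299b-5p: gGUUUACCgucccacauacau

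miR-299b-3p is identical to the first 18 bases of the 22 bases of miR-299a-3p. The Mir299a hairpin lies at chr12:109710638-109710700 on the plus strand, and the Mir299b hairpin at chr12:109710645-109710693 on the minus strand of the same place, where they overlap by 49 bp. The arm of miR-299a-3p occupies chr12:109710676-109710697 and that of miR-299b-3p chr12:109710645-109710662, both outside any annotated gene on their strand. The row kept for miR-299b-3p was the one counted on the Mir299a hairpin. The row on its own hairpin held 16 and 2 counts in the mutants and 4 and 5 in the controls.

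A further set is shown because these low-count 3p arms end exactly where an annotated intron ends. Here capitals mark the last 2 bases, the AG of the splice acceptor.
miR-3076-3p: cgcacucuggucuucccuugcAG
miR-7226-3p: ugacacagccauucucugagcAG
miR-6900-3p: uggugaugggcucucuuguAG
miR-6967-3p: ucaucuuuaucucuccccAG
miR-6988-3p: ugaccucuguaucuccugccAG
miR-7083-3p: ucugcucuccuggaccccAG

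The remaining matched arms among the most counted are shown with the seed in capitals, since none of them ended within 3 bases of an annotated acceptor.
miR-7648-3p: aGGGCUGGgcccgggacgcgg
miR-344b-3p: cAUUUAGCcaaagccugacugu
miR-664-3p: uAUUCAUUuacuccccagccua
miR-7647-3p: aAGUCCAGgaggugguaguac
miR-6977-3p: aAGGCGUUgccugacccugacc

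The seed of miR-7648-3p is also that of miR-6940-5p and miR-762. Beside that of the miR-299 pair, the seeds shared between 3p arms of this set were CUGGCUU, in miR-7652-3p and miR-7688-3p, and CUUCCAU, in miR-7048-3p and miR-7077-3p.

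Few of the listed 3p arms were detected, and miR-143-3p and the miR-299 pair held nearly all of their counts. At least 1 count was found for 33 of the 109 3p arms, or 30.3%, against 543 of 785 5p arms, or 69.2%, and 58 of 165 names without an arm, or 35.2%. Against the 5p rows of the same hairpins the gap was smaller, since 47 of these 111 5p names, or 42.3%, were detected. The median total over the 4 libraries was 4 counts for a detected 3p arm and 26 for a detected 5p arm. For a detected 5p name of the same hairpins it was 5. The detected 3p arms held 17130 counts, of which 17024 belonged to the 6 arms found in all 4 libraries. Both sums hold the shared reads of the miR-299 pair under each name. In total, 8 of the 33 rested on 1 count.

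Library totals were 651031 and 516517 counts in the mutants and 1299067 and 1133553 in the controls. A count of 0 allows a level of up to 3 counts, which is 4.61 and 5.81 counts per 1000000 (CPM) in the mutants and 2.31 and 2.65 in the controls. Reads carried no molecular identifiers, so these limits and the intervals given here cover counting error only. At least 1 count was seen for 21 and 12 of the 3p arms in the mutants and for 27 and 18 in the controls. At the depth of the shallowest library, the expected numbers were 18.7 and 12 in the mutants and 17.6 and 13.4 in the controls, and the genotypes overlapped.

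**Figure D1:**
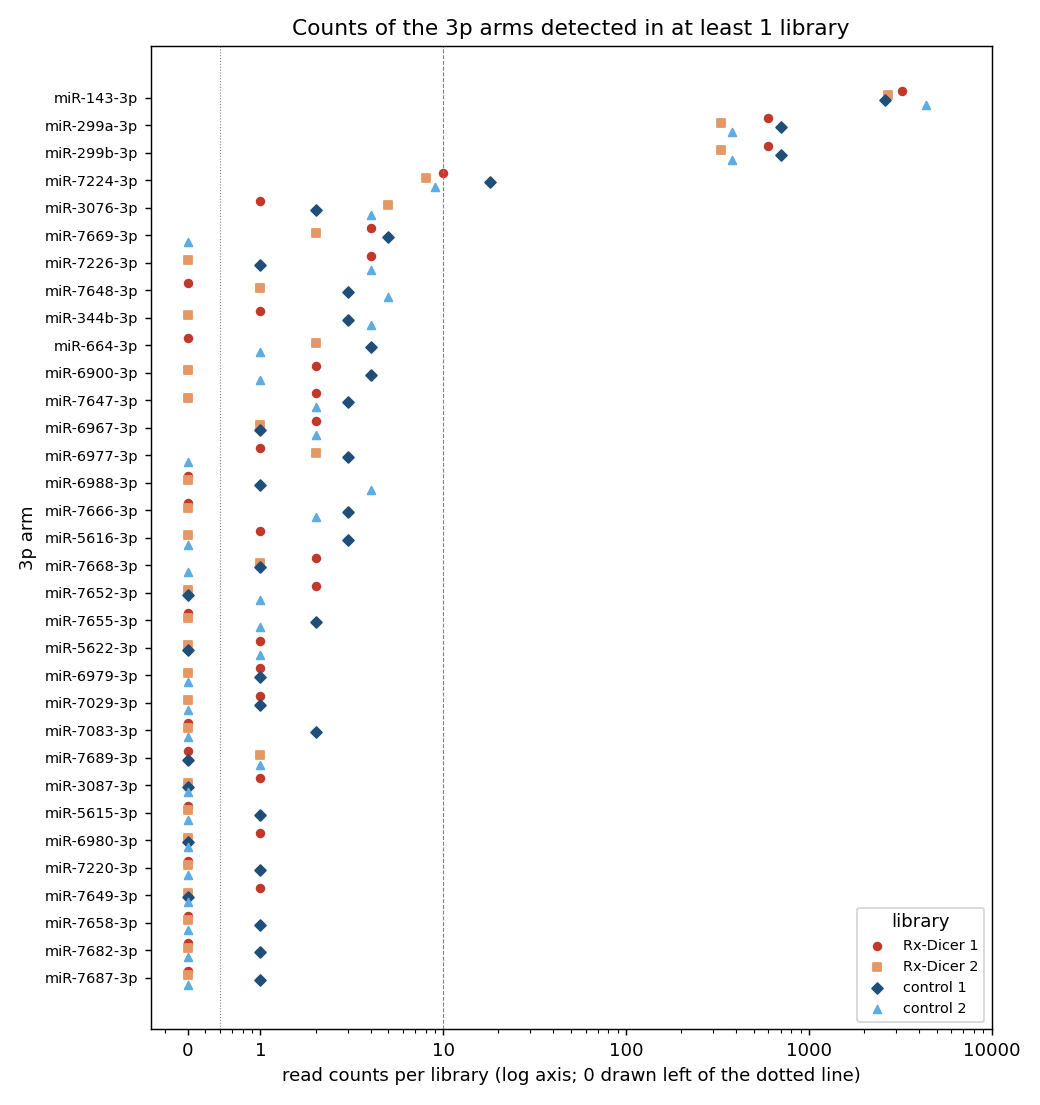
Read counts of the 33 detected 3p arms in each library, 1 arm per line, on a log axis with 0 drawn at the left. Red and orange points are the mutant libraries and dark and light blue points the control libraries, and the dashed line marks 10 counts. miR-143-3p and the miR-299 pair lie far to the right of all others, and 29 arms have no more than 5 counts in any library.

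By their miRBase number, 5 of 13 3p arms under 1000 were detected with 16976 counts. This sum holds the shared reads of the miR-299 pair under both names. The 13 arms from 1000 to below 6000 gave 5 detected arms and 20 counts. The 40 arms from 6000 to below 7200 gave 8 and 31 counts, and the 43 arms from 7200 upward gave 15 and 103 counts. The 8 arms numbered under 1000 with no count were those of miR-122, miR-126b, miR-219c, miR-290b, miR-344h, miR-374c, miR-465d and miR-743a. Of these hairpins, miR-122 is known from liver and miR-290b from embryonic stem cells. The 5p arm of miR-122 had 8 and 11 counts in the mutants and 34 and 14 in the controls. That of miR-290b had 0 in every library. Why these 3p arms had no count was not tested.

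miR-143-3p was the most abundant 3p arm. It is known from smooth muscle and mesenchyme, where it is made from the same transcript as miR-145a. It had 3250 and 2704 counts in the mutants and 2603 and 4384 in the controls, which ranked 36th and 37th of all names in the mutants and 52nd and 36th in the controls. Set against library totals, miR-143-3p was at 4992 and 5235 CPM in the mutants and at 2004 and 3867 CPM in the controls. Control library 1 was the lowest, and control library 2 also lay below both mutants. miR-143-3p made up 72.5% and 79.9% of all 3p counts in the mutants and 63.8% and 84.5% in the controls. These 3p totals hold the shared reads of the miR-299 pair under both names. With those reads counted once, the totals were 3885 and 3056 counts in the mutants and 3373 and 4806 in the controls. The share of miR-143-3p in them was higher in every library.

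Levels were set on a common scale with TMM factors, which correct library totals by the trimmed mean of the log ratios between libraries. On this scale miR-143-3p was at 4272 and 4611 CPM in the mutants and at 2163 and 4753 CPM in the controls, with means of 4441 ± 240 and 3458 ± 1831 CPM (SD, n = 2 each). The genotypes overlapped. The log2 fold change, mutant over control, was 0.36 with a standard error of 0.38 and a 95% interval of -0.53 to 1.25 (edgeR's quasi-likelihood test, Benjamini-Hochberg adjusted p = 0.789). Without control library 1 it was -0.06, and without control library 2 it was 1.04.

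Markers of mesenchyme and vessel wall were also lowest in control library 1. The list held miR-145a-5p, miR-199a-5p, miR-199b-5p, miR-214-5p and miR-143-5p, of which the last is the other strand of the same hairpin and the first comes from the same transcript. All 5 members were tested and 0 were called, with a median log2 fold change of 0.58 beside 0.04 over all 274 miRNAs tested. Their summed level was 11917 and 11348 scaled CPM in the mutants and 4443 and 11072 in the controls. Between the mutants, all 5 members were higher in mutant 1, while miR-143-3p was higher in mutant 2. In mutants 1 and 2, miR-145a-5p was at 386 and 261 scaled CPM and miR-143-5p at 52.6 and 22.2. On the same scale miR-199a-5p was at 10431.5 and 10096.2, miR-199b-5p at 747 and 703 and miR-214-5p at 300 and 266. miR-143-3p stood at 0.41 and 0.457 times the counts of miR-199a-5p in the mutants and at 0.55 and 0.486 times in the controls, and at 11.1 and 17.7 times those of miR-145a-5p in the mutants and 14.5 and 13.0 times in the controls. These ratios do not depend on the scaling and were chosen after the values were seen. The genotypes did not overlap in the first and overlapped in the second. The part of these cells in the level of miR-143-3p was not tested, and in bulk tissue fewer cells of a type and less RNA per cell cannot be told apart.

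The other marker lists gave these summed levels. The list for the labelled tissue, forebrain neuroepithelium, held miR-9-5p, miR-92b-5p, miR-125b-5p and miR-124-5p, the last known from differentiating neurons. It was at 268200 and 283189 scaled CPM in the mutants and at 373302 and 562440 in the controls. Of its members 0 of 4 were called, with a median log2 fold change of -0.61. Most of the sum was miR-9-5p alone, at 240963 and 259155 in the mutants and 339853 and 524056 in the controls. The list for red cells (miR-144-5p, miR-451a, miR-486a-5p) was at 7595 and 8504 in the mutants and at 5737 and 6362 in the controls, with 0 of 3 called and a median log2 fold change of 0.39. The endothelial miR-126a-5p was at 431 and 244 in the mutants and at 253 and 403 in the controls. Surface epithelium was at 235 and 808 in the mutants and at 201 and 427 in the controls. Here 3 of 6 markers were tested with a median log2 fold change of 0.63, and 0 were called. miR-200c-5p and miR-203-5p had 0 counts in every library. Apart from miR-143, no hairpin of the marker lists had a row named as a 3p arm. The sums leave such 3p arms out, and these 0 counts are those of the 5p arms only.

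miR-299a-3p followed, with 2010 counts over the 4 libraries against 12941 for miR-143-3p. It belongs to the large imprinted miRNA cluster between Dlk1 and Dio3, which is expressed from the maternal chromosome in brain and other embryonic tissues. It had 597 and 329 counts in the mutants and 704 and 380 in the controls, and ranked between 73rd and 101st. On the common scale this was 785 and 561 CPM in the mutants and 585 and 412 CPM in the controls, with means of 673 ± 158 and 499 ± 122 CPM (SD, n = 2 each). Mutant library 2 lay between the controls, so the genotypes overlapped. The log2 fold change was 0.43 with a standard error of 0.29 and a 95% interval of -0.24 to 1.11 (edgeR adjusted p = 0.611). Every value of miR-299b-3p is the same, because its reads are these reads, and the pair is 1 measurement.

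The genomic neighbours of miR-299a are miR-379, miR-411, miR-380 and miR-323, of the same cluster. Their 5p arms gave log2 fold changes of 0.35, 0.29, 0.43 and 0.05 in that order, and 0 of the 4 were called. miR-379-5p was at 16339 and 13542 scaled CPM in the mutants and at 10269 and 13181 in the controls. The counts of miR-299a-3p were 4.80% and 4.14% of those of miR-379-5p in the mutants and 5.70% and 3.13% in the controls, so the mutants lay between the controls.

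**Figure D2:**
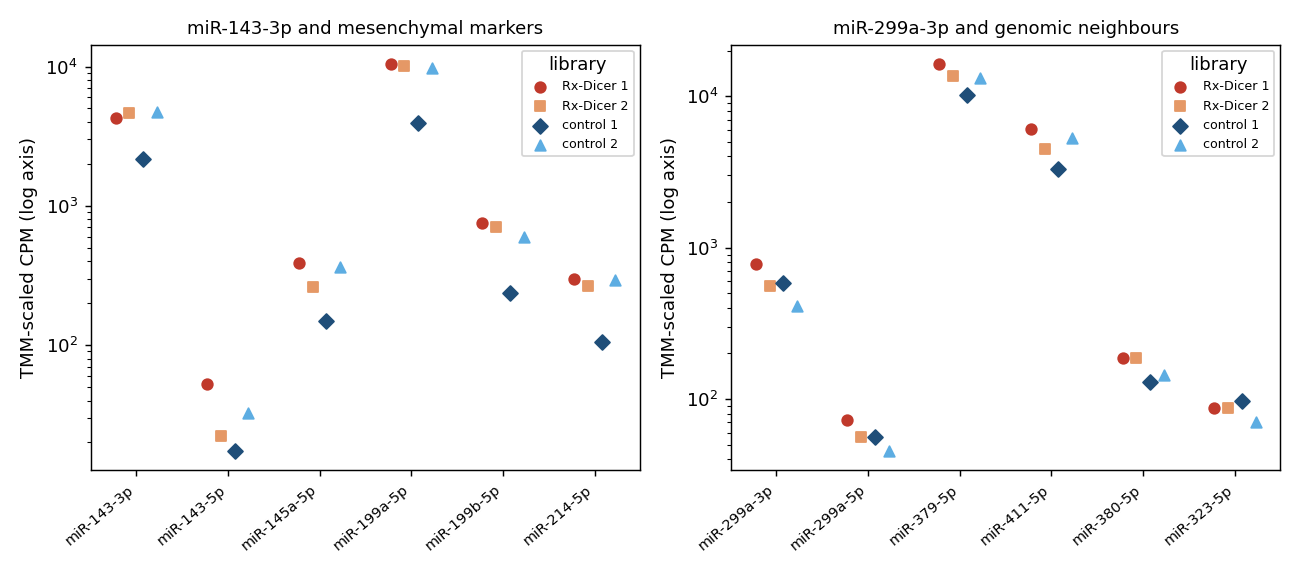
Level in each library in TMM-scaled CPM on a log axis, for miR-143-3p beside its 5p arm and mesenchymal markers (left) and for miR-299a-3p beside its 5p arm and neighbours of its cluster (right). Control library 1 is the lowest point of every miRNA on the left, with 2163 CPM for miR-143-3p. On the right control library 2 is the lowest for miR-299a-3p, with 412 CPM.

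miR-7224-3p was the only other 3p arm with 10 counts or more in a library. It had 10 and 8 counts in the mutants and 18 and 9 in the controls, or 13.1 and 13.6 scaled CPM against 15.0 and 9.76 scaled CPM. Both mutants lay between the controls. The log2 fold change was 0.10 with a standard error of 0.48 and a 95% interval of -1.03 to 1.22 (edgeR adjusted p = 0.984), so at this depth a change of 2-fold in either direction lay within the interval.

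A minimum of 10 counts in each of 2 or more libraries left 274 names for the test. Of these, 7 or 2.55% were called lower in the mutants at an adjusted p under 0.05, and 0, or 0%, were called higher. Of the 109 3p arms, 4 passed the count minimum, and the edgeR test called 0 of them in either direction, 0 also at an unadjusted p under 0.05. DESeq2's Wald test called 0 of the 3 to which it gave an adjusted p, and it gave none to miR-7224-3p. At an unadjusted p under 0.05, edgeR had 2 of the 4 with total counts as the only scaling. These were miR-299a-3p and miR-299b-3p, which carry the same reads and are 1 measurement. Over all 274 miRNAs, 23 were lower and 3 were higher at an unadjusted p under 0.05.

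No tested 3p arm separated the genotypes on the common scale, where 24.5% of all tested miRNAs were lower in both mutant libraries than in both controls and 17.9% were higher in both. In CPM without TMM factors, all 4 were higher in both mutants, as were 48.5% of all tested miRNAs, while 8.39% were lower in both. With total counts as the only scaling the log2 fold change was 0.80 for miR-143-3p (edgeR adjusted p = 0.229) and 0.83 for miR-299a-3p (edgeR adjusted p = 0.219), and the median over all tested miRNAs moved from 0.04 to 0.44. Both scales compare a miRNA with the rest of its library, and neither could show a loss common to every miRNA.

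**Figure D3:**
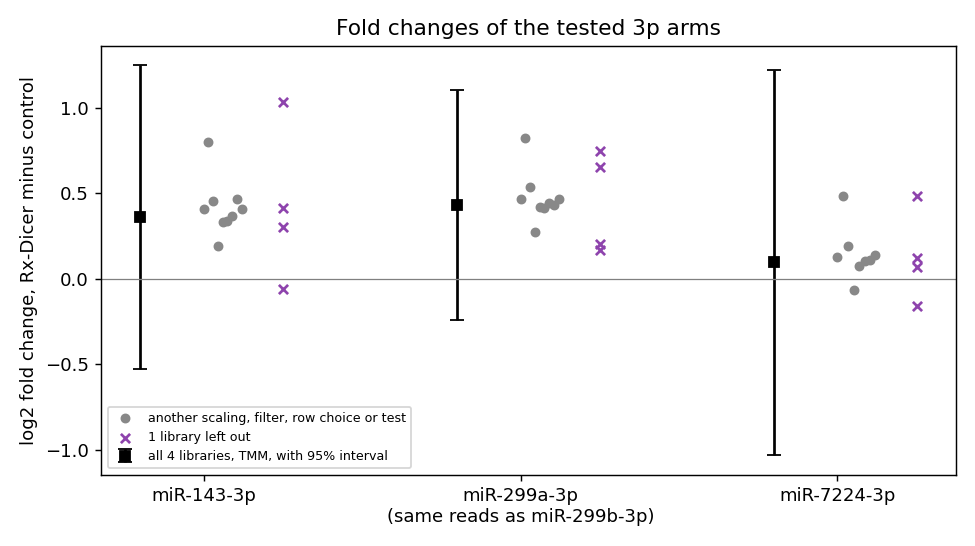
Log2 fold change, Rx-Dicer over control, of the tested 3p arms. Black squares give the fit on all 4 libraries with its 95% interval, grey points another scaling, filter, choice of rows or test, and purple crosses the value with 1 library left out. Every interval spans 0, and the values of miR-143-3p run from -0.06 to 1.04.

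The share of all counts that fell on the listed 3p arms was 0.688% and 0.655% in the mutants and 0.314% and 0.457% in the controls (95% Wilson intervals 0.669 to 0.709%, 0.634 to 0.678%, 0.304 to 0.324% and 0.445 to 0.470%). The means were 0.672 ± 0.0234% and 0.386 ± 0.102% (SD, n = 2 each), so the genotypes did not overlap and the mutants were higher by 0.286 percentage points, or by 0.185 points when all rows of a name were summed. With the reads shared by the miR-299 pair counted once, the shares were 0.597% and 0.592% in the mutants and 0.260% and 0.424% in the controls. Most of it was miR-143-3p alone, at 0.499% and 0.524% of all counts in the mutants and 0.200% and 0.387% in the controls. Being a share of the library total, it carries no TMM correction, and no test was made of it.

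The 3p arm was not always the lesser product of its hairpin. All 113 hairpins with a 3p row had a 5p row as well. Both arms were detected in 17, the 3p arm alone in 18, the 5p arm alone in 30, and neither in 48. The hairpins of miR-6967 carry the same counts, and each of them is among those with both arms. Those of miR-5615 also carry the same counts, and each of them is among those with the 3p arm alone. With at least 20 counts on both arms together there were 11 hairpins, of which 4 had more 3p and 7 more 5p counts.

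miR-143 had 99.2% of its reads on the 3p arm (12941 of 13045 over the 4 libraries). Its 5p arm had 40 and 13 counts in the mutants and 21 and 30 in the controls, so the 3p arm had 81.3 and 208 times as many in the mutants and 124 and 146 times as many in the controls. The controls lay between the mutants. The difference in log2 ratio was -0.05 (exact permutation test, two-sided, p = 1.0), and 2 libraries against 2 cannot give a p below 0.33.

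miR-299a had 91.0% of its reads on the 3p arm. Its 5p arm had 55 and 33 counts in the mutants and 68 and 42 in the controls, which made ratios of 10.9 and 9.97 in the mutants and 10.4 and 9.05 in the controls. The ratios overlapped between genotypes and varied far less than those of miR-143, with a difference of 0.10 on the log2 scale (exact permutation test, two-sided, p = 0.667). The 5p arm is on the other side of the same hairpin and was tested separately, with a log2 fold change of 0.33 (edgeR adjusted p = 0.789).

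miR-7224 also had more 3p reads, with 45 against 8 on its 5p arm, which had 0 and 0 counts in the mutants and 5 and 3 in the controls. The opposite was found for miR-7688, where the 5p arm had 37, 38, 59 and 34 counts in mutants 1 and 2 and controls 1 and 2, and the 3p arm had 0. miR-7658 had 78 5p reads and 1 3p read, miR-122 had 67 and 0, miR-7083 had 48 and 2, miR-219c had 36 and 0, and miR-7659 had 21 and 0. miR-664 had 60 5p reads and 7 3p reads, or 10.4% on the 3p arm.

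**Figure D4:**
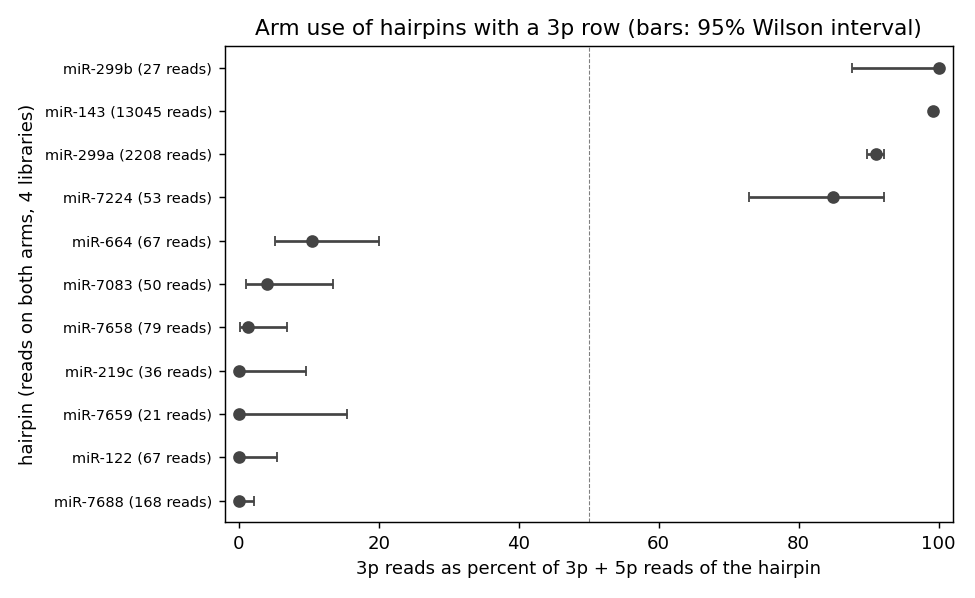
Share of reads on the 3p arm, in percent of the reads on both arms over the 4 libraries, with 95% Wilson intervals, for hairpins with at least 20 reads on both arms. The hairpin of miR-299a is shown once. miR-143, miR-299a, miR-7224 and the own hairpin of miR-299b lie above 84%, and the other 7 hairpins at or below 10.4%.

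The remaining 29 detected 3p arms were too low for a test. Together they had 28 and 15 counts in the mutants and 48 and 33 in the controls, which was 36.8 and 25.6 scaled CPM in the mutants and 39.9 and 35.8 scaled CPM in the controls. The mutant libraries and the controls overlapped. The count of 3p arms seen in the mutants alone was 3, each with 1 count, and in the controls alone 9, with 20 counts. Of the latter, miR-6988-3p had 1 and 4 counts, miR-7666-3p 3 and 2, miR-7655-3p 2 and 1, and miR-7083-3p 2 and 0 in the controls. A count of 0 in the mutants allows up to 3 counts, so none of these differences was detectable at this depth. Both controls had higher library totals than both mutants, and the share of names seen in 1 genotype alone was not taken over all names.

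Several of the low arms lie inside protein-coding genes. miR-3076-3p had 1, 5, 2 and 4 counts in mutants 1 and 2 and controls 1 and 2. It ends at the 3′ end of an intron of Tkt, the transketolase of the pentose phosphate pathway (chr14:30572185-30572207), and was the most counted arm below the test's minimum. miR-7226-3p, in an intron of the receptor phosphatase gene Ptprf (chr4:118210505-118210527), had 4 and 0 counts in the mutants and 1 and 4 in the controls. miR-6900-3p, in an intron of Ndufa10, a subunit of respiratory complex I (chr1:92464483-92464503), had 2 and 0 in the mutants and 4 and 1 in the controls. None of these separated the genotypes.

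miR-6967-3p was found in every library, with 2 and 1 counts in the mutants and 1 and 2 in the controls. It has 2 rows with the same counts for 2 hairpins, and the sequence printed is that in an intron of the kinesin gene Kifc5b (chr17:26921000-26921019), so its reads could come from either hairpin. miR-6988-3p lies in an intron of Syvn1, an E3 ubiquitin ligase of the endoplasmic reticulum (chr19:6051371-6051392), and miR-7083-3p in an intron of Dock6 (chr9:21809941-21809960).

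Of the other low arms, miR-7648-3p, miR-664-3p, miR-7647-3p, miR-6977-3p and miR-344b-3p had no annotated acceptor at their end. miR-7648-3p (0, 1, 3 and 5 counts in mutants 1 and 2 and controls 1 and 2) lies in an exon of Alg10b, a glucosyltransferase gene (chr15:90224392-90224412). On the common scale it was at 0 and 1.71 CPM in the mutants and at 2.49 and 5.42 CPM in the controls. These values did not overlap, at counts too low for a test. A count of 0 allows up to 3 counts, so the genotypes cannot be said to differ. miR-664-3p (0, 2, 4 and 1 counts) lies within the small nucleolar RNA gene Snora36b (chr1:185243012-185243033). miR-7647-3p (2, 0, 3 and 2 counts) is in an intron of Diablo, whose protein promotes apoptosis (chr5:123522637-123522657), and miR-6977-3p (1, 2, 3 and 0 counts) in an intron of the receptor phosphatase gene Ptprs (chr17:56418850-56418871). miR-344b-3p (1, 0, 3 and 4 counts) is in an intron of A230057D06Rik (chr7:61790522-61790543). It was at 1.31 and 0 scaled CPM in the mutants and at 2.49 and 4.34 in the controls. These values again did not overlap, with the same limit from a count of 0. miR-7669-3p, which had no RefSeq position, had 4, 2, 5 and 0 counts. Of the other untested arms, miR-6988-3p, miR-7666-3p and miR-7655-3p, with 0 counts in both mutants, were also lower in both, under the same limit. miR-7668-3p lay the other way, at 2.63 and 1.71 scaled CPM in the mutants and 0.83 and 0 in the controls, under the same limit. Of all tested miRNAs, 24.5% were lower and 17.9% higher in both mutants, and no such share was taken for untested arms. The mutant libraries also had the lower totals.

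Of the 92 3p arms with a RefSeq position, 52 lay in an intron, 16 in an exon and 24 in no annotated gene of their strand. The 3′ end was within 3 bases of an annotated intron's 3′ end for 36 of the 92, or 39.1%, against 168 of the 617 other RefSeq 3p names, or 27.2%, which have no row in the tables used here and were not analysed. These arms were concentrated in the number range from 6000 to below 7200, where 32 of 35 ended there, while it was 0 of 11 under 1000, 2 of 11 from 1000 to below 6000, and 2 of 35 from 7200 upward. The last 2 bases were AG in 31 of the 92, or 33.7%, beside 27.6% of all 709 RefSeq 3p names. Among the arms at an intron's end 7 of 36 were detected, with 1 to 12 counts each, and among the others with a position 17 of 56.

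**Figure D5:**
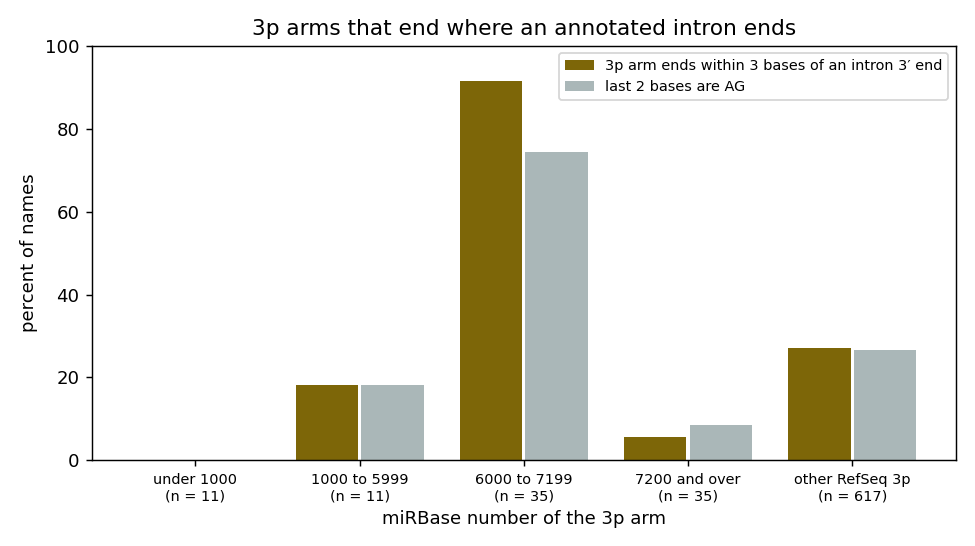
Percent of 3p arms whose last base lies within 3 bases of the 3′ end of an annotated intron (brown) and percent whose last bases are AG (grey), by miRBase number, with all other RefSeq 3p names at the right. The bar of the range from 6000 to below 7200 reaches 91.4% and the others stay at or below 27.2% for the intron's end.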

How the data were processed

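Total RNA was extracted by the authors from the rostral telencephalic primordium at E11.5, and small RNA libraries were read as 75-base single ends. Reads were quantified by the authors with miRDeep2 on mm10 and miRBase, and the deposited values are raw counts per mature miRNA and hairpin; the settings and the treatment of reads that fit several hairpins were not given in the sources used here. The 4 libraries were taken as 2 per genotype from their labels. The row of highest total stood for each mature name. Library sizes were sums over these names. Names reaching 10 counts in 2 or more libraries were tested with edgeR 4.0.16 (R 4.3.3; TMM factors 1.17, 1.14, 0.926 and 0.814 for mutants 1 and 2 and controls 1 and 2; quasi-likelihood F test; Benjamini-Hochberg adjustment over all 274). SE is the log2 fold change over the square root of F. Arm ratios were compared by exact permutation (scipy 1.17.1). Alternatives were other scalings and filters, other choices of row, a replicate block, DESeq2 1.42.0, and leaving out each library, the refits of which were added after seeing the data. Sequences were RefSeq's and introns GENCODE's, both on GRCm38.p6. The edgeR step was tested on simulated counts.

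Named were the tested 3p arms, the next most counted up to 12 in all and any found in every library, up to 4 seen in 1 genotype alone, the undetected arms numbered under 1000, and the 5p arms and genomic neighbours of the first groups. Arms with at least 20 reads on both arms, the arms that share a seed and miR-7668-3p were also named, chosen after their values were seen. The 3p arms and all lists were chosen with earlier results of these data known. Libraries of a genotype differed by more than counting noise (chi-square per degree of freedom 52.4 and 215), so each was counted as 1 sample; this does not show whether they came from separate embryos.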

Additional observations from a re-analysis of the deposited data

How the results depend on the processing

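With 2 libraries per genotype and 516517 to 1299067 counts in a library, a change could be tested in 4 of 109 3p arms. Of these, 0 were called in the main setting or under any alternative that kept every library. DESeq2's Wald test gave miR-7224-3p no adjusted p. At a minimum of 100 counts miR-7224-3p was not tested, and with rows of the same counts taken once miR-299b-3p was not. The number of all miRNAs called lower, 7, was 4 with DESeq2 size factors, 0 with total counts, 3 with upper-quartile scaling, 14 with no count minimum, 14 with every row kept, 3 with rows of the same counts taken once and 11 with DESeq2's Wald test. Replicate numbers do not pair the libraries in the labels, and same-numbered libraries deviated together only weakly (r = 0.085 across 274 miRNAs, which are not independent). With a replicate block 0 were called. Without 1 library the number was 0 to 6, and the log2 fold change of miR-143-3p was -0.060 to 1.04, that of miR-299a-3p 0.17 to 0.75 and that of miR-7224-3p -0.16 to 0.49. miR-7224-3p was at -0.065 with no count minimum. With at least 3 counts, 6, 5, 13 and 9 3p arms were detected in mutants 1 and 2 and controls 1 and 2, with at least 10 counts 4, 3, 4 and 3, and at equal depth control 1 had 17.6 in place of 27. Summing rows over hairpins made the difference in the 3p share 0.185 percentage points, and without 1 library it was 0.214 to 0.358. The log2 difference in 3p to 5p ratio of miR-143 was -0.73 to 0.63 without 1 library. The causes were not tested.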
